A study of Homo sapiens with 6 samples.

Results

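The genes described here encode the subunits of protein kinase A (PKA), its anchoring protein AKAP12 and 3 phosphodiesterases of the PDE4 family. The cells were of the human breast cancer line MDA-MB-231, an established cell line, and their RNA was measured after an siRNA against parathyroid hormone-related protein (siPTHrP) or a control siRNA against luciferase (siLuc). The members were 10 named genes, PRKACA, PRKACB, PRKAR1A, PRKAR1B, PRKAR2A, PRKAR2B, AKAP12, PDE4A, PDE4B and PDE4D. Each was followed on every probe set for which the array's annotation names that gene alone. This gave 25 probe sets of 22283 on the array, of which 17 passed a filter on low signal that kept 13329 probe sets in all. Both siRNAs had been introduced by electroporation and total RNA was collected 3 days later. The 3 independent experiments each gave 1 siLuc and 1 siPTHrP RNA, so each group held 3 arrays, and the 2 RNAs of an experiment were compared. All cells belonged to this single line and all had been electroporated with an siRNA; no untransfected cells and no second siRNA against PTHrP were analysed here.

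PKA is the main intracellular target of cyclic AMP (cAMP). Regulatory subunits hold the catalytic subunits inactive until cAMP binds to them and sets the catalytic subunits free, and anchoring proteins such as AKAP12 place the enzyme near its substrates. PDE4 enzymes break cAMP down and so limit the signal in space and time. The receptor that PTHrP shares with parathyroid hormone couples to cAMP formation, and PKA phosphorylates CREB, a transcription factor that binds the cAMP response element (CRE) of gene promoters. The comparison asked which of these transcripts differed in signal with the siRNA against PTHrP.

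The palindromic CRE was looked for in the RefSeq start windows of the members, since it is the promoter sequence at which this pathway reaches DNA. Each window held 300 bases, running from 250 before to 50 after an annotated transcription start (GRCh38.p14), and the 10 genes had 42 such windows, some of them overlapping. The 8-base motif TGACGTCA, which reads alike on both strands, lay in 3 of the 42 windows (7.14%), as against 1.85% of all 35116 windows. These were 2 overlapping windows of PRKAR1A, which share 1 site, and 1 of 5 windows of PDE4A. The 5-base core TGACG, searched on both strands and contained in the longer motif on each, lay in 11 of 42 member windows (26.2%) and in 24.6% of all windows. Both stretches that carry the palindrome are printed 5′ to 3′ on the plus strand, with cores in capitals, so that cores which overlap form the palindrome:
PRKAR1A, chr17:68512369-68512429: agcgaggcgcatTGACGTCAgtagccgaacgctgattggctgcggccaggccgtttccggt
PDE4A, chr19:10416673-10416777: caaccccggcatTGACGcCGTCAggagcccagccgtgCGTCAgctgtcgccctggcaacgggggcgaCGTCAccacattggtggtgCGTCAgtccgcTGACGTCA
The PRKAR1A stretch ends at the base before 1 of its annotated starts, and its palindrome begins 49 bases before that start. In the overlapping window, counted with its start as base 1, the same palindrome lies after the start, at bases 3 to 10. The PDE4A stretch holds 7 cores, and its palindrome begins 3 bases before the start and crosses it. No palindrome lay in the windows of the other 8 genes. A match describes letters only, and binding at these sites was not measured.

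One array, siLuc of experiment 1 (siLuc 1), differed from the rest. Its label carries no number, and it was assigned to experiment 1 as the only number left. The differences given for experiment 1 rest on that assignment. Across probe sets siLuc 1 had Spearman correlations of 0.716 to 0.725 with the other arrays, which reached 0.882 to 0.960 among themselves. Its median signal of 887.2 was the highest. The median was 652 and 659 on the other siLuc arrays and 577, 559 and 593 on the siPTHrP arrays of experiments 1, 2 and 3. Every siPTHrP median thus lay below every siLuc median, also without siLuc 1. What part this has in the differences of dim probe sets was not tested. SiLuc 1 alone was deposited with decimals, in 90.1% of its values as against 0% on every other array. Its hybridisation control probe sets had a geometric mean of 273057, as against 10838 to 41428 on the other arrays. Whether this array was processed in another way was not tested. Differences are also given without siLuc 1 where that array stood away from the others, and fits without it had no experiment block. The siRNA's own target transcript was not analysed here, so the knockdown could not be checked. Of 5 genes fixed as markers of this line, VIM, CD44, CAV1 and AXL were far above the filter on all arrays and TGFBI was under the filter, with 80 to 899. Of 7 luminal and epithelial markers 4 passed the filter, and of 6 markers of other cell types 3 did, among them COL1A1 at 1949 to 3198; no marker was at 0. The summed signal of those 6 lay between 5777 and 8565 on the siLuc arrays and between 3676 and 4784 on the siPTHrP arrays, and its part in the results was not tested. The sum of the 7 luminal markers overlapped between the groups (2694 to 6020 with siLuc, 3175 to 3215 with siPTHrP).

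**Figure D1:**
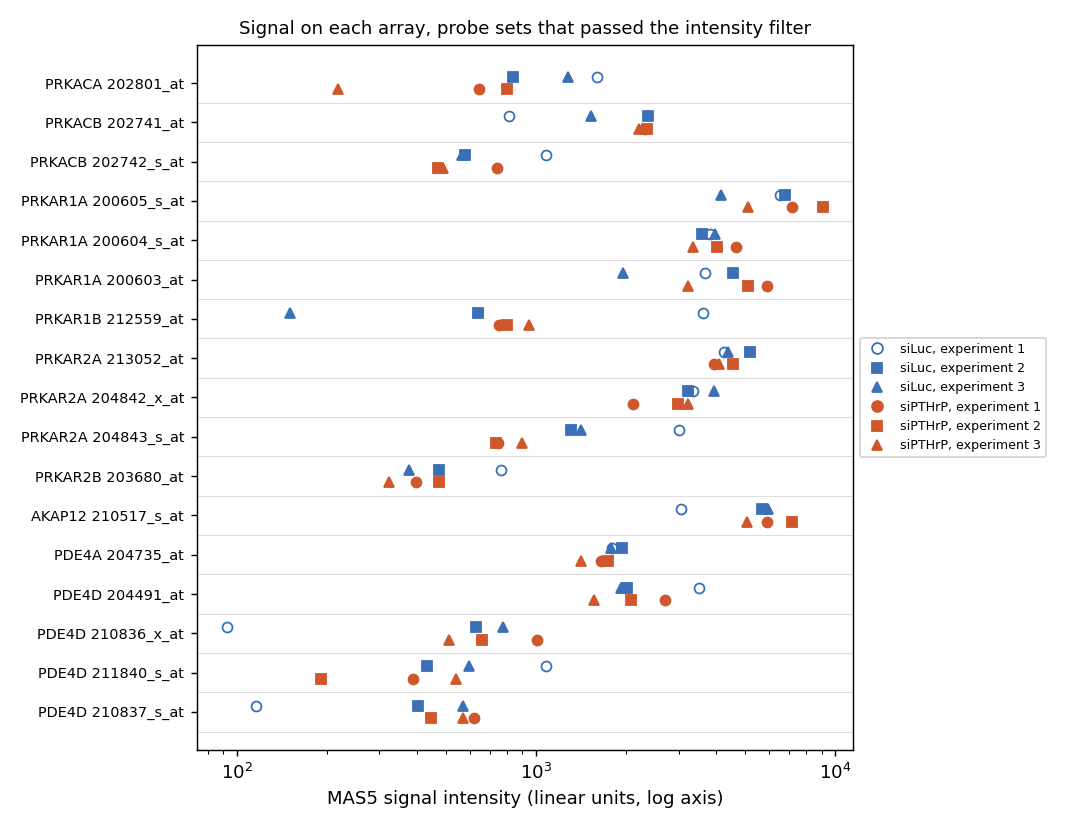
MAS5 signal (log axis) of the 17 member probe sets that passed the intensity filter, with 1 symbol per array (blue siLuc, orange siPTHrP, shape by experiment, open circle for siLuc 1). The siPTHrP arrays lie below all siLuc arrays for PRKACA 202801_at, PRKAR2A 204843_s_at and 204842_x_at and PDE4A 204735_at, and the open circle lies far from the other siLuc arrays for PRKAR1B 212559_at and PDE4D 210836_x_at.

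No member passed the adjusted threshold. In limma, with Benjamini-Hochberg adjustment over all 13329 kept probe sets, 0 of the 17 members were under 0.05, as were 0 of all (0%). Members' adjusted p-values lay between 0.360 and 0.927. At an unadjusted limma p under 0.05 there were 3 members, PRKAR2A (204843_s_at) and PRKACA (202801_at) with lower signal and PRKAR1A (200603_at) with higher signal. Over all kept probe sets 5.36% were lower and 6.77% were higher at that p, and the members' counts of 2 and 1 among 17 are near that background. This balance depended on the scaling: with each array centred on its median, 185 of all kept probe sets were lower and 1930 higher at that p, as against 715 and 903, and of 4 members at that p 3 were higher. In RNA of whole cultures, fewer cells with a transcript and less of it per cell cannot be told apart. The median log2 difference of the 17 was -0.13, with 9 below 0 and 8 above, and that of all kept probe sets was 0.030, with 47.5% below 0. All 3 siPTHrP arrays lay below all 3 siLuc arrays for 4 of the 17, as against 9.69% of all kept probe sets, and 2 of these 4 were of the same gene, PRKAR2A. They lay above them for 0 of the 17, as against 8.94% of all. The sign of the difference was the same in all 3 experiments for 11 of 17 member probe sets and for 38.1% of all.

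The kept probe sets of the catalytic subunits did not share a sign, and those of PRKACB differed from each other. PRKACA, which encodes the catalytic subunit alpha, had signals of 1597, 839 and 1283 on the siLuc arrays of experiments 1, 2 and 3 and of 646, 800.0 and 218 on the siPTHrP arrays (202801_at). Every siPTHrP array lay below every siLuc array, but in experiment 2 the values were close, and the low mean rested largely on the siPTHrP array of experiment 3. The means were 1240 ± 381 and 554.7 ± 302 (SD, n = 3), which gave 0.413-fold of the siLuc level, or a log2 difference of -1.27 on the log2(intensity + 16) scale (SE 0.53, limma adjusted p = 0.402). Without experiment 3 the log2 difference was -0.68, and without siLuc 1 it was -1.07. The unadjusted limma p was under 0.05 in 7 of 13 alternative settings; it was 0.289 without experiment 3 and 0.0825 without siLuc 1. The other PRKACA probe set, 216234_s_at, was under the filter. It had 275.5, 519 and 331 with siLuc and 447, 96 and 408 with siPTHrP, so that it was higher in 2 experiments and lower in the other.

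PRKACB, which encodes the catalytic subunit beta, had signals of 814.3, 2372 and 1533 with siLuc and of 2322, 2351 and 2204 with siPTHrP on 202741_at. The 3 siPTHrP arrays were nearly equal, whereas the siLuc arrays ranged widely, and the groups overlapped. The fitted level with siPTHrP was 1.59-fold that with siLuc (log2 difference 0.67, SE 0.33, limma adjusted p = 0.445). Without siLuc 1, where this probe set was dimmest, it was 1.20-fold. The second PRKACB probe set, 202742_s_at, gave 1079, 581 and 568 with siLuc and 739, 469 and 489 with siPTHrP, a log2 difference of -0.35 (SE 0.48, limma adjusted p = 0.765). It was lower in each of the 3 experiments, opposite in sign to 202741_at, but siLuc 1 was 1.90 times the mean of the other 5 arrays. The log2 difference was -0.052 without siLuc 1 and -0.022 with each array centred on its median.

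Among the regulatory subunits, all 3 probe sets of PRKAR1A had log2 differences above 0 and all 3 of PRKAR2A had log2 differences below 0. PRKAR1A encodes the type I regulatory subunit alpha, the main brake on the catalytic subunits in many tissues. On 200603_at it had 3660, 4545 and 1960 with siLuc and 5928, 5090 and 3227 with siPTHrP. The siPTHrP array was the higher in every experiment, though the groups overlapped because experiment 3 was low in both. The means were 3388 ± 1314 and 4748 ± 1383 (SD, n = 3), a log2 difference of 0.52 (SE 0.21, limma adjusted p = 0.397). By experiment the differences were 0.69, 0.16 and 0.72. The unadjusted limma p was under 0.05 in 7 of 14 alternative settings; it was 0.149 with no experiment block and 0.128 without siLuc 1, where the log2 difference was 0.62. The probe set 200605_s_at had 6511, 6787 and 4160 with siLuc and 7149, 9129 and 5113 with siPTHrP, and again each siPTHrP array was above that of its experiment. Its log2 difference was 0.29 (SE 0.17, limma adjusted p = 0.503). On 200604_s_at the values were 3827, 3583 and 3959 with siLuc and 4649, 4010 and 3351 with siPTHrP, and experiment 3 went the other way. The log2 difference there was 0.067 (SE 0.21), and it turned to -0.039 without experiment 1 and to -0.010 with quantile normalization. A pseudogene of this gene, PRKAR1AP1, has a probe set of its own, 217361_at, which was under the filter with 79 to 1009. How far transcripts of near-identical copies bind the PRKAR1A probes is uncertain.

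PRKAR2A encodes the type II regulatory subunit alpha, the form that binds most anchoring proteins. Its probe set 204843_s_at had the smallest p of the 17 kept member probe sets. The signals were 2996, 1307 and 1413 with siLuc and 744, 737 and 900.0 with siPTHrP. The siPTHrP arrays lay close together and below every siLuc array, and siLuc 1 was 2.94 times the mean of the other 5 arrays. The means were 1905 ± 946 and 793.7 ± 92.2 (SD, n = 3), which gave 0.452-fold (log2 difference -1.15, SE 0.38, limma adjusted p = 0.360). The differences were -1.99, -0.81 and -0.64 by experiment. Without siLuc 1 the ratio was 0.586-fold, and without experiment 1 the log2 difference was -0.73 (limma adjusted p = 0.341). In each of 14 alternative settings it stayed below 0, with an unadjusted limma p between 0.00979 and 0.0479 and an adjusted p between 0.155 and 0.530. The lowest unadjusted p was that without experiment 3, which keeps siLuc 1. All these settings refit the same arrays or part of them, so they are not independent of one another.

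The other probe sets of PRKAR2A gave smaller differences. On 204842_x_at the signals were 3358, 3231 and 3923 with siLuc and 2117, 2976 and 3215 with siPTHrP, which did not overlap but nearly touched, and the log2 difference was -0.35 (SE 0.22, limma adjusted p = 0.507). On 213052_at they were 4247, 5180 and 4375 with siLuc and 3934, 4539 and 4084 with siPTHrP. These groups overlapped, although each siPTHrP array lay slightly below that of its experiment, and the log2 difference was -0.13 (SE 0.19, limma adjusted p = 0.770). It was 0.19 with each array centred on its median, a setting that moved the median of all kept probe sets from 0.030 to 0.36. The size of the PRKAR2A difference thus depended on the probe set, and which transcript forms each probe set detects was not determined.

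PRKAR1B and PRKAR2B encode the beta forms of both regulatory types, best known from nervous tissue and, for PRKAR2B, from fat. PRKAR1B had 3626, 638 and 151 with siLuc and 752, 800.0 and 950.0 with siPTHrP on 212559_at. The siLuc arrays spanned the siPTHrP arrays on both sides, and the differences of -2.25, 0.32 and 2.53 by experiment did not share a sign. The fitted log2 difference was 0.20 (SE 0.77, limma adjusted p = 0.927). It became 1.36 without siLuc 1, where every siPTHrP array lay above both remaining siLuc arrays, and -0.96 without experiment 3. The unadjusted limma p was under 0.05 in 2 of 13 alternative settings. It was 0.0394 without siLuc 1 (adjusted p = 0.388) and 0.0291 without experiment 1 (adjusted p = 0.293). The second probe set, 212555_at, was under the filter with 306.1, 222 and 164 against 787, 134 and 310.0. PRKAR2B had 765, 476 and 377 with siLuc and 396, 474 and 323 with siPTHrP on its single probe set, 203680_at. Experiments 2 and 3 were nearly level, and the log2 difference was -0.38 (SE 0.60, limma adjusted p = 0.796), or -0.10 without siLuc 1.

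**Figure D2:**
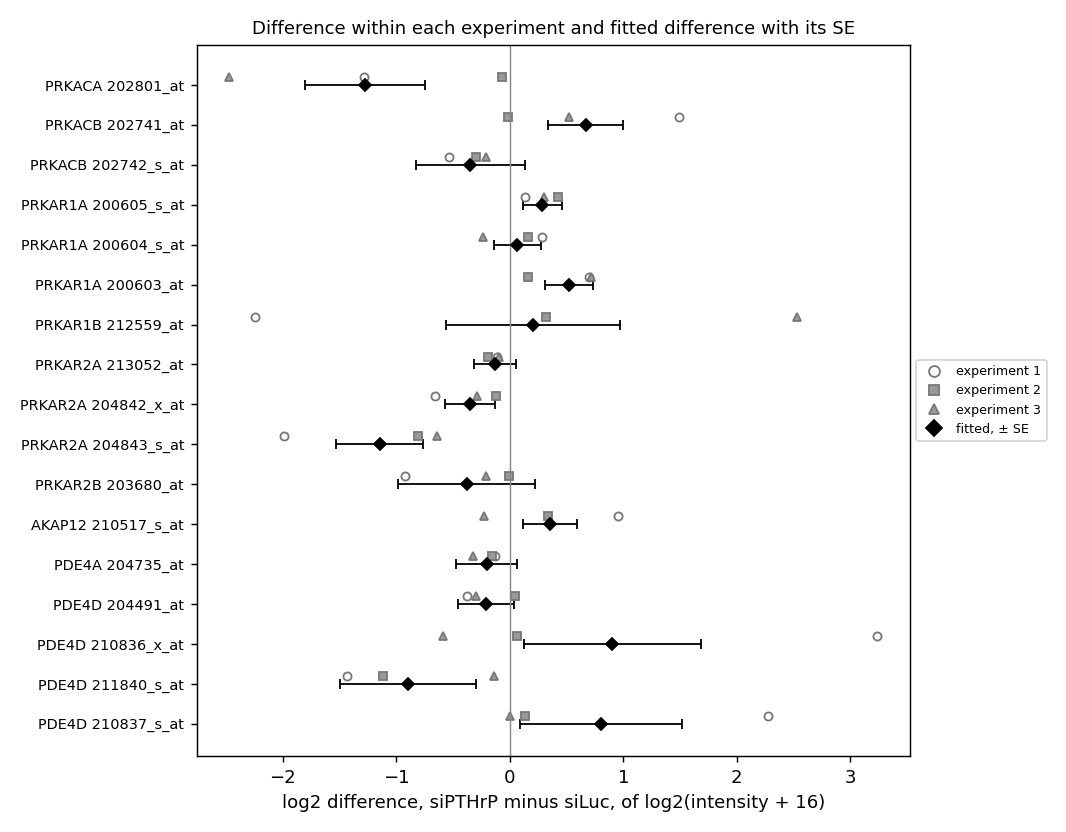
Log2 difference (siPTHrP minus siLuc) of the 17 kept member probe sets within each experiment (grey symbols, open for experiment 1) and as fitted with its SE (black). All 3 experiments lie left of 0 for PRKAR2A 204843_s_at and all 3 lie right of 0 for PRKAR1A 200603_at, whereas those of PRKAR1B 212559_at run from -2.25 to 2.53.

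AKAP12 encodes gravin, a scaffold that binds PKA, protein kinase C and the beta-2 adrenergic receptor and whose loss is known from several cancers. Its probe set, 210517_s_at, had signals of 3048, 5671 and 5948 with siLuc and of 5921, 7177 and 5073 with siPTHrP. Of the siLuc arrays only that of experiment 1 was low, and the groups overlapped. The means were 4889 ± 1600.3 and 6057 ± 1059 (SD, n = 3), a log2 difference of 0.35 (SE 0.24, limma adjusted p = 0.529). By experiment it was 0.95, 0.34 and -0.23. Without siLuc 1 it was 0.046, so that the ratio was 1.03-fold.

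The PDE4 genes each have several promoters and produce long and short enzyme forms. With all arrays their probe sets differed in sign within each of the 3 genes. Without siLuc 1, however, every PDE4A probe set was lower with siPTHrP. Whether enzyme forms play a part in these signs was not tested. Of the 4 probe sets of PDE4A, 204735_at alone passed the filter. It had 1801, 1939 and 1776 with siLuc and 1648, 1736 and 1413 with siPTHrP. No siPTHrP array reached the siLuc range, but the distance was small: the means were 1839 ± 87.7 and 1599 ± 167 (SD, n = 3), or 0.868-fold (log2 difference -0.20, SE 0.27, limma adjusted p = 0.755). Its sign turned to 0.12 with each array centred on its median. The other PDE4A probe sets, 211447_s_at, 211591_s_at and 211901_s_at, had log2 differences of 0.12, -1.67 and -1.44 with all arrays. Without siLuc 1 these were -0.55, -0.60 and -0.45. On 211591_s_at and 211901_s_at that array read 1812 and 1164, 8.66 and 8.50 times the mean of the other 5, while on 211447_s_at it read 118.2.

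PDE4B had 3 probe sets, all under the filter, and 2 of them separated the groups in opposite directions. On 203708_at the signals were 1161, 277 and 296 with siLuc and 43, 64 and 73 with siPTHrP. Every siPTHrP array lay far below the lowest siLuc array, as the plot of the dim probe sets shows. The log2 difference was -2.67, and -2.01 without siLuc 1. On 211302_s_at the signals were 105.6, 389 and 90.0 with siLuc and 457, 420.0 and 499 with siPTHrP, so every siPTHrP array was above every siLuc array, with a log2 difference of 1.45, or 1.19 without that array. With no filter on intensity, limma adjusted p-values were 0.407 for 203708_at and 0.477 for 211302_s_at. In that fit 203708_at had the smallest unadjusted limma p of the 25 member probe sets, 0.00911, as against 0.0124 for PRKAR2A 204843_s_at. The third, 215671_at, had 290.3, 4 and 278 against 59, 12 and 124. Among the 8886 probe sets under the filter, 17.0% had all siPTHrP arrays below all siLuc arrays and 2.09% had them above, and of the 8 member probe sets there each held for 1. MAS5 signals this low are imprecise, and no detection calls were analysed here.

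**Figure D3:**
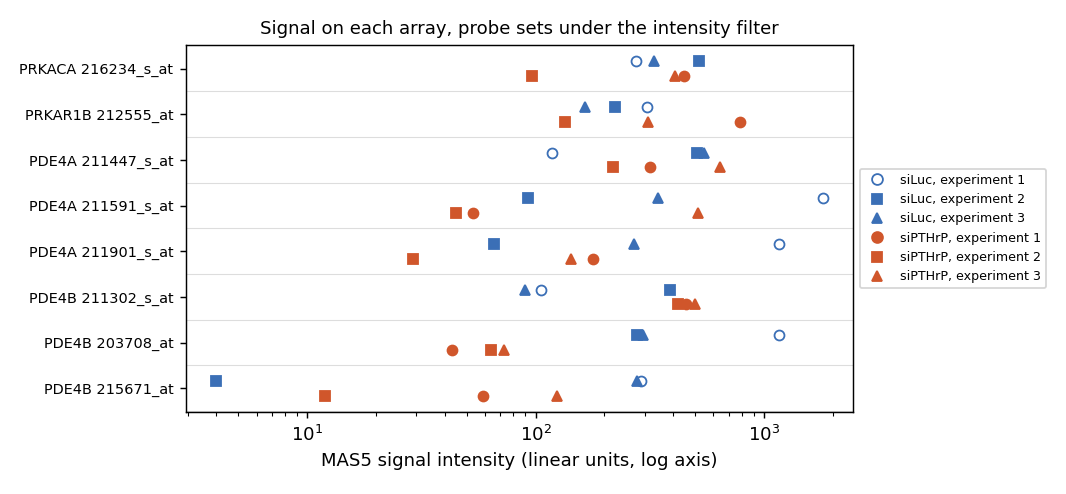
MAS5 signal (log axis) of the 8 member probe sets under the intensity filter, with 1 symbol per array as in the plot of the kept probe sets. PDE4B 203708_at has its siPTHrP arrays at 43 to 73 and its siLuc arrays at 277 to 1161, and PDE4B 211302_s_at shows the reverse order at 420.0 to 499 against 90.0 to 389.

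PDE4D, the family member best known for associating with beta-arrestin and A-kinase anchors, had 4 kept probe sets, 2 with log2 differences above 0 and 2 below. On 204491_at the signals were 3508, 2013 and 1927 with siLuc and 2692, 2076 and 1567 with siPTHrP. The groups overlapped, and the log2 difference of -0.21 (SE 0.24, limma adjusted p = 0.720) became 0.065 without siLuc 1. On 210836_x_at they were 92.6, 629 and 776 with siLuc and 1008, 658 and 511 with siPTHrP, and on 210837_s_at 115.8, 404 and 570.0 with siLuc and 623, 446 and 571 with siPTHrP. In both, siLuc 1 alone was low. Their log2 differences of 0.90 (SE 0.78, limma adjusted p = 0.619) and 0.81 (SE 0.71, limma adjusted p = 0.633) became -0.0018 and 0.17 without it. On 211840_s_at the signals were 1079, 434 and 598 with siLuc and 389, 191 and 542 with siPTHrP. This probe set was lower in all 3 experiments, with a log2 difference of -0.90 (SE 0.60, limma adjusted p = 0.527) and -0.54 without that array.

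**Figure D4:**
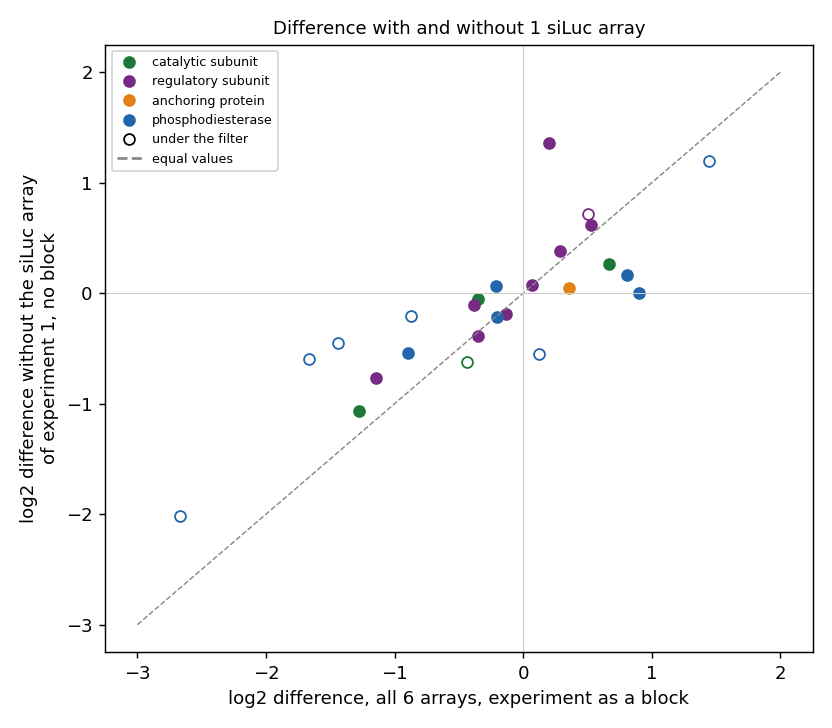
Log2 difference (siPTHrP minus siLuc) of all 25 member probe sets with all 6 arrays and the experiment as a block (x) against the value without siLuc 1 (y), coloured by role, open symbols for probe sets under the filter. PRKACA 202801_at keeps most of its difference (-1.27 and -1.07), PDE4D 210836_x_at moves from 0.90 to -0.0018, and PRKAR1B 212559_at from 0.20 to 1.36.

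Other anchoring proteins, from a list of 25 genes, were about evenly divided. Of 20 on the array 14 passed the filter, 7 with log2 differences above 0 and 7 below, with a median of 0.043, and 0 passed the adjusted threshold (smallest limma adjusted p = 0.377). The median was -0.11 without siLuc 1, -0.15 without experiment 1, 0.37 with each array centred on its median and -0.37 with no filter. At an unadjusted limma p under 0.05 there were 2 of 14, as against 12.1% of all kept probe sets in either direction, and 0 without siLuc 1. AKAP7, a small membrane-bound anchor, had 2985, 910.0 and 1948 with siLuc and 348, 720.0 and 1026 with siPTHrP (log2 difference -1.43, SE 0.52, limma adjusted p = 0.377), or 0.371-fold. On this probe set siLuc 1 was 3.01 times the mean of the other 5 arrays. The ratio was 0.485-fold without it, and the log2 difference was -0.62 without experiment 1, which by itself gave -3.04. Its groups overlapped, since the siLuc array of experiment 2 was below the siPTHrP array of experiment 3. AKAP11, a large anchor of type II PKA, had 1304, 2996 and 2234 with siLuc and 3109, 3591 and 3017 with siPTHrP, without overlap, at 1.56-fold (log2 difference 0.64, SE 0.26, limma adjusted p = 0.402). Without siLuc 1 it stood at 1.25-fold. AKAP8, a nuclear anchor, had 2925, 2032 and 2159 with siLuc and 1804, 1519 and 1779 with siPTHrP, also without overlap, at 0.726-fold (log2 difference -0.46, SE 0.25, limma adjusted p = 0.468). Its siLuc 1 value was 1.57 times the mean of the other 5 arrays, and the ratio without that array was 0.811-fold.

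Other phosphodiesterases that act on cAMP had mostly log2 differences below 0. Of a list of 13 genes, 10 were on the array, all of other families, since PDE4C on that list was not among them. The filter was passed by 9, 7 of them below 0 and 2 above, with a median of -0.64, as against 0.030 for all kept probe sets. None passed the adjusted threshold in limma (smallest adjusted p = 0.410), and 1 of 9 had an unadjusted p under 0.05 (0 without siLuc 1), as against the same 12.1%. Without experiment 1 the median was -0.59, and with each array centred on its median it was -0.31. It was -0.34 with quantile normalization and -0.25 with the filter at the 60th percentile, which fewer of these genes passed. The size of this tilt thus depended on the scaling and on the dimmer probe sets. PDE10A had 2199, 837 and 670.0 with siLuc and 760.0, 609 and 301 with siPTHrP, at 0.491-fold (log2 difference -1.03, SE 0.45, limma adjusted p = 0.410). It stood at 0.700-fold without siLuc 1. PDE8B, a high-affinity cAMP phosphodiesterase, had 1304, 929 and 1007 with siLuc and 497, 505 and 799 with siPTHrP, without overlap, at 0.555-fold (log2 difference -0.85, SE 0.44, limma adjusted p = 0.453). Without siLuc 1 the PDE8B ratio was 0.612-fold. PDE11A, which acts on both cAMP and cyclic GMP, had 1097, 376 and 674 with siLuc and 348, 381 and 237 with siPTHrP, at 0.495-fold (log2 difference -1.01, SE 0.63, limma adjusted p = 0.507). Experiment 2 was level, and the ratio was 0.638-fold without siLuc 1.

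A last list of 13 genes held PKA inhibitors, other cAMP effectors and partners of PKA or PDE4. Of these, 9 were on the array and 4 passed the filter, 2 above 0 and 2 below, with a median of -0.044. None passed the adjusted threshold in limma (smallest adjusted p = 0.496), and 0 had an unadjusted p under 0.05. That count was 1 without siLuc 1, with median centring and with array weights. The list's median was 0.28 with each array centred on its median and -0.27 with no filter. PKIG, a PKA inhibitor peptide, had 4485, 4037 and 5698 with siLuc and 6150, 5376 and 5990 with siPTHrP, at 1.24-fold. It was higher in each experiment, and the groups overlapped. PDPK1, a kinase that phosphorylates the activation loop of PKA and related kinases, had 1209, 1885 and 1841 with siLuc and 1127, 1046 and 1560 with siPTHrP, at 0.762-fold, or 0.661-fold without siLuc 1. PJA2, a ubiquitin ligase that targets regulatory subunits, stood at 1.24-fold with all arrays and at 0.945-fold without siLuc 1.

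**Figure D5:**
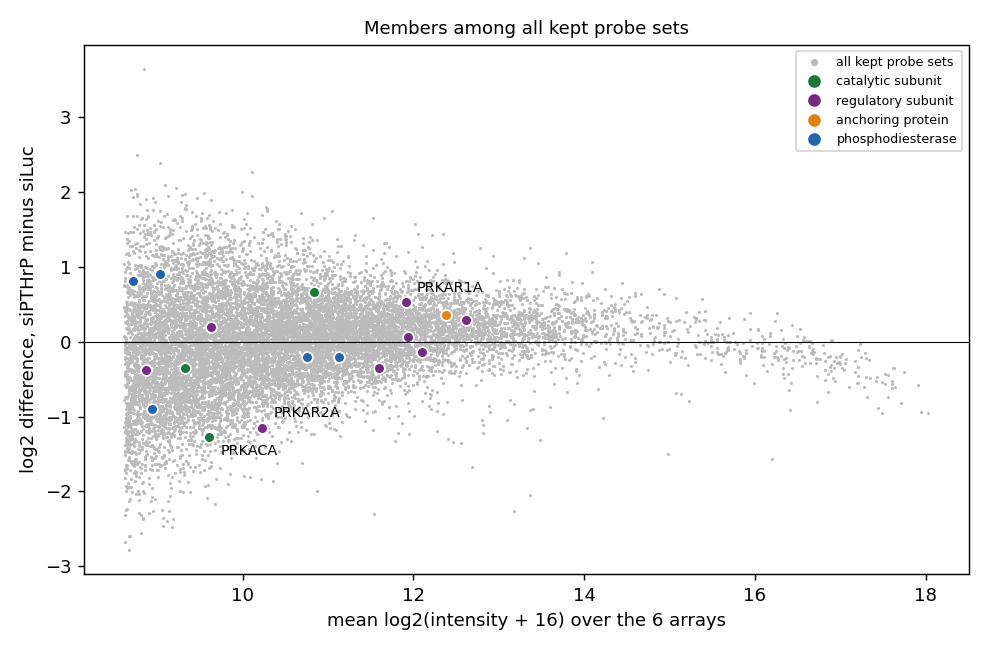
Log2 difference (siPTHrP minus siLuc) against mean log2(intensity + 16) for all 13329 kept probe sets (grey), with the 17 member probe sets coloured by role. The members lie within the cloud of other probe sets of like intensity, those with the largest differences being PRKACA 202801_at (-1.27) and PRKAR2A 204843_s_at (-1.15).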

How the data were processed

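Total RNA of 6 MDA-MB-231 samples was extracted with RNeasy, biotin-labelled and put on 1 Affymetrix array each (human genome set U133, type A), per the labels. The deposited values are linear MAS5 signal intensities, as the submitters' processing notes say; the MAS5 version is not given in the sources used here. Means trimmed by 2% at each end lay between 1500.4 and 1500.6, so the deposited scaling was kept. An unnumbered siLuc sample was assigned to experiment 1, the only number left, and another with 3 in its title but 2 in its description to experiment 3. The labels say that numbers mark independent experiments, so experiment was a block. Correlations of deviations from the group means were -0.012, 0.157 and 0.157 for same-experiment pairs and -0.21 to 0.13 for the others.

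In R 4.3.3 with limma 3.58.1, 68 control probe sets were left out. Probe sets were kept where the mean log2(intensity + 16) reached its 40th percentile (8.614, a signal of about 376). The offset understates changes of dim probe sets. lmFit and eBayes, with trend on intensity, gave two-sided p-values across all kept probe sets (residual degrees of freedom 2, prior 7.17), with Benjamini-Hochberg adjustment and a 0.05 threshold. The steps were run on simulated data to check the signs of planted changes. The simulated noise was independent between arrays and held no experiment effect, so the use of the block was not tested there. The 3 samples of a group are separate transfections of 1 line, per the labels. For each probe set, eBayes drew the spread between these toward that of other probe sets of like intensity. With 2 residual and 7.17 prior degrees of freedom, the SE and p-values rest more on those other probe sets than on its own spread. The number of arrays limits precision.

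Symbols came from the array annotation, updated by Entrez identifier for 19059 of 19071 probe sets with 1 gene; 1043 named several genes and 2169 none, and these were not used. All member probe sets are reported; list genes are their brightest probe set, and the up to 3 with the smallest p per list are named. The members and lists were chosen with earlier results of these data known. Promoter windows are RefSeq's, on GRCh38.p14.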

Additional observations from a re-analysis of the deposited data

How the results depend on the processing

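The alternatives tried were a fit with no replicate block, array weights, a robust or absent trend, offsets of 1 and 64, a filter at the 60th percentile or none, median centring, quantile normalization, and fits that left out each experiment or siLuc 1 (unblocked). The count of member probe sets past the adjusted threshold in limma was 0 in all of them. The number with an unadjusted limma p under 0.05 was 3 of 17 in the analysis reported. It was 1 with quantile normalization, 1 with no trend, 2 with no replicate block, 4 with median centring and 4 without experiment 2. With no filter it was 4 of 25, and with the filter at the 60th percentile 2 of 10. In the others it was 2 or 3 of 17. Over all probe sets at that p, 715 were lower and 903 higher of 13329 in the analysis reported. These were 185 and 1930 with median centring and 493 and 833 without experiment 2. They were 1529 and 984 of 22215 with no filter, and 460 and 727 of 8886 with the filter at the 60th percentile. Over all probe sets the 0 past the adjusted threshold became 177 with array weights, 38 without experiment 1, 46 without experiment 2 and 175 without experiment 3. Of 231 values of the 17 kept member probe sets under these alternatives, 222 kept their sign and side of the threshold and 9 turned in sign; the cause was not tested. With median centring the log2 difference became 0.19 for PRKAR2A 213052_at, 0.12 for PDE4A 204735_at and 0.12 for PDE4D 204491_at. For PRKAR1A 200604_s_at it was -0.010 with quantile normalization and ran from -0.039 to 0.22 over the settings that left out arrays. Over those settings PRKAR1B 212559_at ran from -0.96 to 1.43, PDE4D 204491_at from -0.34 to 0.065 and PDE4D 210836_x_at from -0.26 to 1.65. Signal over background limits the 8 probe sets under the filter.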

Other observations

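AKAP4, which encodes an anchoring protein of the sperm tail, was singled out after its values were seen, since it is under the filter and outside the rule for named genes. Its probe set 207019_s_at had signals of 1017, 719 and 561 on the siLuc arrays and of 45, 57 and 59 on the siPTHrP arrays. The log2 difference was -3.45, or -4.08, -3.33 and -2.94 by experiment. With no filter its limma unadjusted p was 0.000944 and its adjusted p was 0.392. In that fit 1529 of 22215 probe sets were lower at an unadjusted p under 0.05. Among probe sets under the filter, 17.0% had all siPTHrP arrays below all siLuc arrays, as AKAP4 had. Leaving out siLuc 1, unblocked, gave AKAP4 a log2 difference of -3.23. The gene has no other probe set on the array.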
